A study of Mus musculus with 34 samples.

Results

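Sox1, Sox2, Sox3, Zic1, Zic2 and Zic5 are 6 genes of 2 families of transcription factors, and they were followed here by gene symbol through the 30 tables of a mouse study of the long non-coding RNA Evx1as. All 6 had a row among the 46785 genes of the embryo section tables. The tables of the cultures, with 37145 genes, held 5 of them, and Sox1 had no row there.

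SOX1, SOX2 and SOX3 make up the SoxB1 group of proteins that bind DNA through an HMG box and mostly activate transcription. SOX2 works with POU factors such as POU5F1 (OCT4) in pluripotent cells and the epiblast, and its expression is known to become restricted to the anterior, neural part of the epiblast as the primitive streak forms. SOX3 is known from the epiblast and the neural plate, and SOX1 from cells already committed to neural fate. The ZIC proteins are zinc finger factors of the epiblast, neural plate and neural crest. Zic2 is known for its role in forebrain development, Zic5 is its close neighbour on the chromosome, and Zic1 is known from the dorsal nervous system and somites.

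The culture libraries came from embryonic stem cells of the strain 129S1/SVImJ on day 4 after withdrawal of LIF (leukemia inhibitory factor), 3 of the wild-type line (CJ9) and 3 of a knock-in line whose label reads 4x polyA KI. The labels name neither the place of the insertion nor the number of clones. The section libraries came from laser-captured pieces of C57/B6 embryos at embryonic day 7, heterozygous (Evx1as+/-) or homozygous (Evx1as-/-) at Evx1as, with no wild-type embryo among them. The streak gave 6 heterozygous and 5 homozygous sections, the mesoderm 3 and 5, and the anterior epiblast 1 of each, labelled as layers 4 to 6. Streak and mesoderm sections are numbered by layer (1 to 11), with no statement of which end is proximal. Another 3 sections have labels that conflict on the region and entered no comparison. No label ties a section to an embryo or a culture to a separate experiment: sections of a genotype can share an embryo, so every p-value over sections below is too small, and the p-values of the cultures measure only the spread between these libraries.

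Sox1, Sox2 and Sox3 are each a single exon in the GENCODE annotation of mm10. Sox2 lies on the plus strand of chromosome 3 (chr3:34650405-34652461) inside the long non-coding gene Sox2ot, which runs on the same strand and shares no exon with it. Sox3 lies on the minus strand of the X chromosome (chrX:60891366-60893430) and Sox1 on the plus strand of chromosome 8 (chr8:12395295-12400126). Zic2 (chr14:122475435-122479852, plus strand) and Zic5 (chr14:122456795-122465677, minus strand) point away from each other with 9757 bases between them. Zic1 (chr9:91358058-91365810, minus strand) overlaps Zic4 on the opposite strand in GENCODE. The spans given for the pair in the section tables do not overlap, and those in the culture tables do. No source used here says whether the counting used the strand, so in the cultures reads of this pair cannot be told apart where the spans overlap. Zic4 stayed at or below 0.132 FPKM in every culture.

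The 250 bases before the RefSeq start of 3 members that were higher in the knock-in cultures are shown because these members moved together there. They come from the RefSeq table of GRCm38.p6, which holds 4 of the 6 members and names no promoter of Sox3 or Zic2. Capitals mark matches to ACAAAG (a SOX-type site) and CCAAT (the CCAAT box, here also as its reverse complement ATTGG). The windows are chr3:34649745-34649994 (plus) for Sox2, chr9:91365769-91366018 (minus) for Zic1 and chr14:122465659-122465908 (minus) for Zic5. The RefSeq starts differ from those of GENCODE above: the Sox2 window ends before the GENCODE gene begins, and the windows of Zic1 and Zic5 reach into the GENCODE genes.
Sox2: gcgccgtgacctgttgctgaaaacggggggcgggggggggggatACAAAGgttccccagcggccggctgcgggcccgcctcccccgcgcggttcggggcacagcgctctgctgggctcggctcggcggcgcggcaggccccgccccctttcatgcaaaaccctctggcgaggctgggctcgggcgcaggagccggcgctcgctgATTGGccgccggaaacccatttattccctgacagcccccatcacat
Zic1: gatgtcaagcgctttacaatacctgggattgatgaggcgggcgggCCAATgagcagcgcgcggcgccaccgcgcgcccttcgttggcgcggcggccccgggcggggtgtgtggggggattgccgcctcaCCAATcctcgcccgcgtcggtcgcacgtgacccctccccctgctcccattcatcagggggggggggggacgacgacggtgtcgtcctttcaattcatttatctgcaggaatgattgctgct
Zic5: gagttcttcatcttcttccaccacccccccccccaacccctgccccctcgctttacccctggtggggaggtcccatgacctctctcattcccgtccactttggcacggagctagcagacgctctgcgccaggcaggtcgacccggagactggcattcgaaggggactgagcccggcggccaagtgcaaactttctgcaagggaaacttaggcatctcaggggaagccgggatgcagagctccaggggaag

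The Sox2 window held 1 ACAAAG, 206 bases before the RefSeq start, and 1 CCAAT on the minus strand, 46 bases before it. The Zic1 window held 2 CCAAT boxes, 205 and 121 bases before the start, and the Zic5 window held neither. Of 32851 windows of this length, 16.5% held ACAAAG and 33.8% held CCAAT on either strand. No window of the 4 members held ATGCAAAT (a POU octamer, in 1.60% of all windows), ACAATG (10.7%) or CAGCAGG (a ZIC-type site, 8.44%), and no 2 matches overlapped. The Sox1, Sox2 and Zic1 windows were rich in CpG, with 29, 27 and 27 against a median of 6 over all windows, and that of Zic5 held 11. The matches describe the letters only.

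Values are in FPKM, which counts fragments relative to transcript length and to the size of the library, so levels can be compared between genes. The authors' tables were made separately for cultures and sections, and levels set across the 2 kinds of table were not tested. Read depth is unknown. Each deposited value comes with the authors' interval. The sum of FPKM was 502990 to 582184 in the cultures and 132929 to 376860 in the sections. The non-coding RNA Yam1 took between 1.07% and 38.3% of it in a section, and mitochondrially encoded genes took less in homozygous than in heterozygous sections (2.03% to 3.21% against 3.38% to 5.53% in the sections with a region). Tests used log2(FPKM + 1) in a linear model with limma over all genes whose mean in the libraries compared was 1 FPKM or more, and a gene was called where its p adjusted over all these genes (Benjamini-Hochberg) was under 0.05. Fold changes on this scale understate those of genes with low values.

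In the cultures all 5 members measured were higher in the knock-in line. Each was called, no wild-type value reached a knock-in value, and the log2 difference was between 1.12 and 1.95. Zic1, with the largest difference, passed the filter of 1 FPKM only through its knock-in values (mean 3.40 FPKM, against 0.0886 in wild type). Its call therefore depends on the group in which it was high. Of the 13133 genes tested, 16.2% were called higher (32.4% in either direction) and 24.4% were higher with no overlap, so calls of this direction were common in this comparison. With 3 libraries against 3, an exact two-sided permutation test of 1 gene cannot go below p = 0.1, and each of the 5 gave that value.

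Sox2 stood at 28.1, 33.9 and 39.6 FPKM in the wild-type cultures and at 85.2, 86.3 and 80.4 in the knock-in cultures. The groups lay far apart compared with their spread, 33.9 ± 5.73 against 84.0 ± 3.16 (mean ± SD, n = 3 each), and the deposited intervals of the highest wild-type library (36.0 to 43.1) and of the lowest knock-in library (73.9 to 86.9) do not touch. The log2 difference was 1.30 (SE 0.143, limma adjusted p = 0.000774). Sox3, the second SoxB1 gene with a row there, stood at 8.95, 11.9 and 6.39 FPKM in wild type and at 26.9, 24.9 and 23.6 in the knock-in line. All knock-in libraries were high, and the log2 difference was 1.41 (SE 0.206, limma adjusted p = 0.00236).

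Zic1 was near 0 in wild type, at 0.117, 0.0946 and 0.0547 FPKM, and stood at 2.51, 2.39 and 5.28 FPKM in the knock-in cultures. Knock-in replicate 3 was the highest, and the deposited intervals are wide at this level. Those of knock-in replicates 1, 2 and 3 start at 0.675, 0.450 and 0.951. Those of wild-type replicates 1, 2 and 3 end at 0.917, 1.36 and 0.783. Every knock-in interval thus overlaps that of wild-type replicate 2. The log2 difference was 1.95 (SE 0.273, limma adjusted p = 0.00197) with 1 FPKM added and 4.13 with 0.1 FPKM added, because the wild-type values are small.

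Zic2 stood at 23.4, 30.5 and 57.2 FPKM in wild type and at 79.5, 81.0 and 68.2 in the knock-in line, a log2 difference of 1.12 (SE 0.290, limma adjusted p = 0.0221). Its neighbour Zic5 stood at 7.66, 7.71 and 18.4 FPKM against 24.2, 25.3 and 24.9, a log2 difference of 1.18 (SE 0.299, limma adjusted p = 0.0199). In both genes wild-type replicate 3 was the high library of its group and came closest to the knock-in values, while the knock-in libraries lay close together. These were the less certain calls. Zic2 lost its call without wild-type replicate 1 or 2 or without knock-in replicate 1 or 2 (limma adjusted p 0.0564 to 0.0691), and Zic5 without wild-type replicate 1 or 2 or knock-in replicate 2 (0.0596 to 0.0651). Without wild-type replicate 3 the log2 differences were 1.47 for Zic2 and 1.57 for Zic5, both called.

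**Figure D1:**
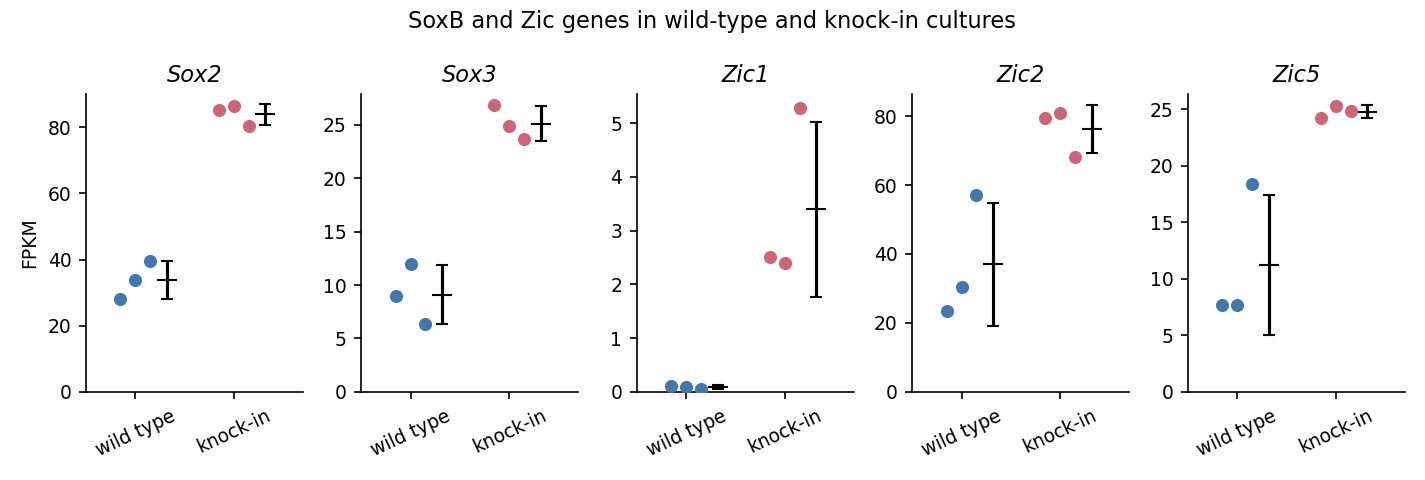
FPKM of the 5 members with a row in the culture tables; each point is a library (3 wild-type, blue; 3 knock-in, red), and the black mark and bar are the mean and SD of the group. Every knock-in point lies above every wild-type point; wild-type replicate 3 is the highest blue point for Zic2 (57.2) and Zic5 (18.4), and Zic1 is near 0 in wild type.

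Zic2 and Zic5 share chromosome 14, whose genes were lower in the knock-in line as a whole, with a median log2 difference of -0.39. Against that median the differences of the pair were 1.51 and 1.58. The medians of chromosomes 3, 9 and X, which hold Sox2, Zic1 and Sox3, were -0.01, 0.01 and 0.13. Sox14, a SoxB2 gene with the same HMG box and mostly repressing activity, was listed at 0 in the 3 wild-type libraries and at 0.812, 0.331 and 1.99 FPKM in the knock-in libraries, below the filter of the test.

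Within a culture the order of the members was Sox2 and Zic2, then Sox3 and Zic5, then Zic1. Sox2 and Zic2 had means of 33.9 ± 5.73 and 37.0 ± 17.9 FPKM in wild type and 84.0 ± 3.16 and 76.2 ± 7.00 in the knock-in line (SD, n = 3). Within each knock-in library Sox2 was above Zic2, and genes were not tested against each other. Sox3 and Zic5 had means of 9.09 ± 2.77 and 11.3 ± 6.18 FPKM in wild type and 25.1 ± 1.63 and 24.8 ± 0.557 in the knock-in line. Zic1 lay below all of them, at 0.0886 ± 0.0313 and 3.40 ± 1.63 FPKM.

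Genes of the same tissues were also compared from lists. Of 7 tested genes of the anterior neural plate list, 4 were called higher in the knock-in cultures and none lower, with a median log2 difference of 0.88 over the 7 beside 0.02 over all genes. They were Otx2, the head and anterior epiblast homeobox gene (log2 difference 2.22), Msi1, an RNA-binding protein of neural progenitors (1.48), Pou3f1, a POU factor of the epiblast and neural plate (1.18), and Gbx2 (0.88), known from the hindbrain border and also from epiblast. Gbx2 passed the filter of 1 FPKM only through its knock-in values (mean 1.75 FPKM, against 0.485 in wild type). Of 11 tested partners and targets of SOX2 in the epiblast, 7 were called higher and 1 lower (median 0.61). The largest were Foxd3 (3.80), Dnmt3b (2.72), Fgf4 (2.19) and Utf1 (2.14), all known from pluripotent or epiblast cells, and the partner Pou5f1 differed by 0.61 (limma adjusted p = 0.0116). Of 17 tested genes of the streak and early mesoderm list, none was called higher and 12 were called lower (median -2.25). They include T, the streak factor Brachyury (-3.79), Mixl1 (-3.84), Cdx2 (-3.87) and Evx1 (-3.65), the homeobox neighbour of Evx1as. These lists were chosen with results of these data known.

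Markers of extraembryonic cells also differed between the cultures. Of 8 tested genes of the extraembryonic ectoderm list, 5 were called lower in the knock-in line and 1 higher, with a summed level of 116.9 to 160.1 FPKM in wild type and 45.9 to 59.8 in the knock-in line. The summed level of 12 visceral endoderm markers was 210.9 to 249.6 FPKM against 273.0 to 349.0, and Foxa2, which also marks other endoderm, was the 1 of 2 tested that was called (log2 difference 1.89). In whole cultures fewer cells of a type and less RNA per cell cannot be told apart, and the part of these other cell types in the members' differences was not tested.

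In the embryo, Sox2 and Sox3 were highest in the anterior epiblast, while the third SoxB1 gene, Sox1, was listed at 0 there. Sox2 stood at 12.4 FPKM in the heterozygous and 14.5 in the homozygous anterior section, with deposited intervals of 9.55 to 15.3 and 12.5 to 16.4. In the 11 streak sections it ran from 0 to 3.39 FPKM with a median of 0.938, and no streak section reached either anterior one. The log2 difference between anterior and streak was 2.94 (SE 0.512, limma adjusted p = 0.0127, 2 sections against 11, with sections that can share an embryo). Of the 9854 genes tested, 0.101% were called higher (0.406% in either direction) and 0.68% were higher with no overlap. The call does not hold without the heterozygous anterior section (limma adjusted p = 0.472), without the homozygous one (0.128), or with 0.1 FPKM added in place of 1 (0.157), although the log2 difference without either section stayed between 2.84 and 3.05 by the difference of means.

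Sox3 was high in the same 2 sections, at 3.90 FPKM in the heterozygous and 1.13 in the homozygous one, and was listed at 0 in 9 of 11 streak sections. Its highest streak value was 0.451 FPKM, in heterozygous layer 3. The mean over these sections was under the filter of 1 FPKM, so it was compared alone, and the log2 difference of means was 1.62 (exact two-sided permutation p = 0.0128, the smallest that 2 sections against 11 allow, again over sections that can share an embryo). It was 1.02 without the heterozygous and 2.23 without the homozygous anterior section, each with an exact permutation p of 0.0833, the smallest that 1 section against 11 allows, and 4.12 with 0.1 FPKM added in place of 1. Sox3 is X-linked. Xist was above 0 in all 21 sections with a region (10.5 and 7.78 FPKM in the anterior ones) and the Y-linked gene Ddx3y was listed at 0 in all of them.

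Sox1 was listed at 0 in both anterior sections, as was Zic1. Over all 24 sections Sox1 was above 0 in 2, with a highest value of 0.111 FPKM, and Zic1 in 3, with a highest value of 0.320 FPKM. None of 26 abundant ribosomal protein genes (mean of at least 50 FPKM) was listed at 0 in any section. Of all 757 genes with such a mean, 27 were listed at 0 in at least 1 section. Among 4067 genes with a mean of 1 to 3 FPKM, 2364 were. A low gene listed at 0 is therefore not shown to be absent.

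**Figure D2:**
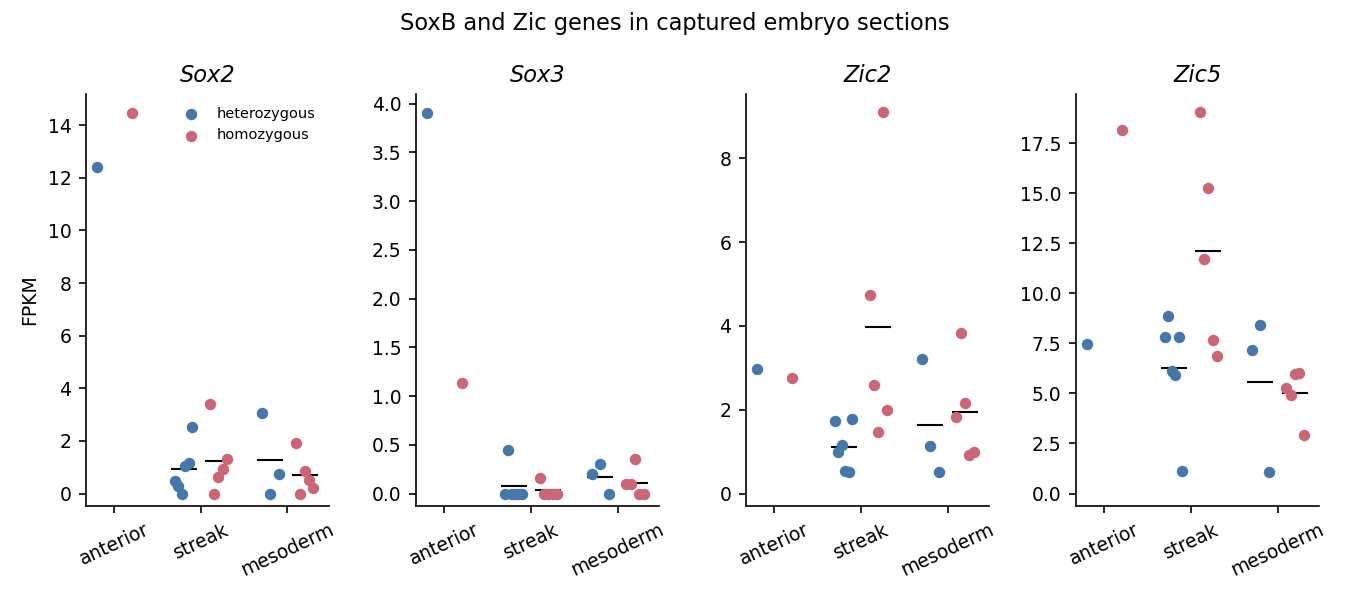
FPKM of Sox2, Sox3, Zic2 and Zic5 in the sections of the anterior epiblast (1 per genotype), streak (6 heterozygous, 5 homozygous) and mesoderm (3 and 5); each point is a section, blue heterozygous and red homozygous, and black lines are group means. Sox2 and Sox3 are highest in the 2 anterior sections, and Zic2 and Zic5 overlap between the regions.

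The Zic members did not show the contrast of Sox2 and Sox3. Zic2 stood at 2.98 and 2.76 FPKM in the anterior sections and at 0.524 to 9.11 in the streak (median 1.73). Zic5 stood at 7.47 and 18.1 FPKM in the anterior sections and at 1.14 to 19.1 in the streak (median 7.80). The anterior values lay inside the range of all 11 streak sections for both genes. Against only the 5 streak sections of layers 3 to 7, both Zic2 values were above the highest streak value of 2.60 FPKM, with a difference of means of 0.77 (exact two-sided permutation p = 0.0952, where 0.0476 is the smallest possible) and a fitted difference of 0.73 (limma adjusted p = 0.479). Those of Zic5 still overlapped. The log2 differences were 0.38 for Zic2 (95% interval -0.65 to 1.40, limma adjusted p = 0.801) and 0.50 for Zic5 (-0.57 to 1.57, limma adjusted p = 0.749). Neither passed the test, and both intervals reach beyond a log2 of 1. Over all genes the median log2 difference was -0.35. After median-ratio scaling the differences of means were 0.73 for Zic2 and 0.94 for Zic5 (exact two-sided permutation p = 0.205 and 0.128). Both genes still overlapped with the streak. Those of Sox2 and Sox3 were then 3.25 and 1.86.

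Part of the genes of the lists differed between the anterior sections and the streak. Of 18 tested genes of the streak and early mesoderm list, 6 were called lower and none higher (median log2 difference -2.40 beside -0.35 over all genes), among them T (-5.50), Mixl1 (-5.63), Fst, an inhibitor of activin (-4.71), and Eomes (-3.80). T was at 3.62 FPKM or less in the anterior sections and at 50.8 FPKM or more in every streak section. Of 6 tested genes of the anterior neural plate list 1 was called higher, Pou3f1 (2.67, limma adjusted p = 0.00254), and of 9 tested partners and targets of SOX2 1, Utf1 (3.35, limma adjusted p = 0.00686). Pou3f1 had a streak mean of 0.925 FPKM and passed the filter of 1 FPKM only through the anterior sections. Otx2 stood at 18.3 and 40.7 FPKM in the anterior sections and at 0.357 to 45.7 in the streak and did not pass (1.84, limma adjusted p = 0.348). Pou5f1 differed by -0.18 (limma adjusted p = 0.889). Of the 20 anterior neural plate genes 9 were listed at 0 in both anterior sections, including Pax6, Lhx2 and En1, markers of later neural tissue.

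Markers of extraembryonic cells were low in the anterior sections. The summed level of 10 extraembryonic ectoderm markers was 0.657 and 2.71 FPKM there and 10.5 to 73.3 in the streak. Eomes and Cdx2, which are also on the streak and early mesoderm list, reached 59.9 and 8.54 FPKM in the streak. No other marker of the 10 exceeded 4.29 FPKM there, so the sum does not measure extraembryonic cells alone. That of 12 visceral endoderm markers was 38.6 and 29.96 FPKM, nearly all of it Apoe, against 44.4 to 1470 in the streak, and Ttr, Afp and Sox17 were at or near 0. The part of these cells in the difference between anterior epiblast and streak was not tested.

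**Figure D3:**
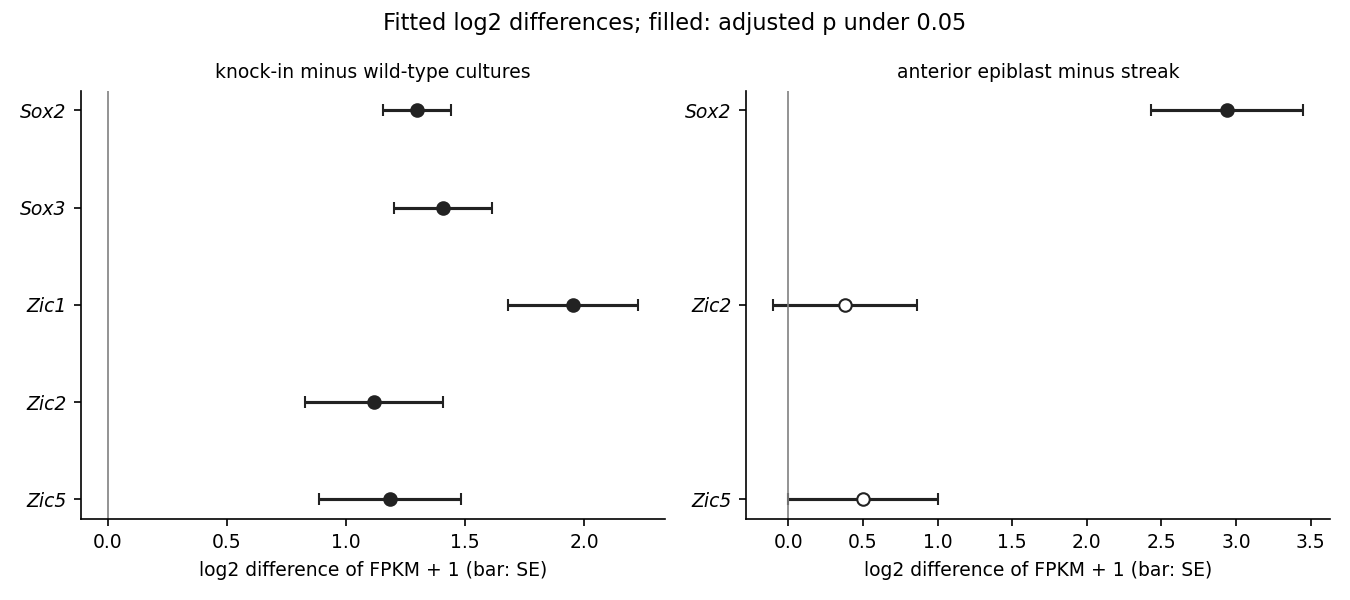
Fitted log2 differences of FPKM + 1 with their standard errors, knock-in minus wild-type cultures on the left (3 libraries each) and anterior epiblast minus streak on the right (2 sections against 11); filled points passed an adjusted p of 0.05. All 5 members lie to the right of 0 in the cultures; among the sections Sox2 is high (2.94), and Zic2 and Zic5 do not pass.

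The balance of the families gave a similar picture within a library, with some overlap, and the scaling of the library does not enter there. Sox2 and Sox3 together took 61.0% and 42.7% of the summed FPKM of Sox2, Sox3, Zic2 and Zic5 in the heterozygous and homozygous anterior section. In the streak they took 0 to 46.5% (median 7.10%) and in the mesoderm 1.16% to 32.2% (median 9.79%). The highest streak share, above that of the homozygous anterior section, was in heterozygous layer 11. Zic5 was at its lowest in the streak there (1.14 FPKM), and Sox2 at its highest of the heterozygous streak sections (2.54 FPKM). This layer 11 section had the fewest genes at 1 FPKM or more of all sections (6806). In the cultures the share was 37.8% to 54.5% in wild type and 51.1% to 52.8% in the knock-in line. Zic5 was above Zic2 in 9 of 11 streak, 8 of 8 mesoderm and 2 of 2 anterior sections and in 0 of 6 cultures. The cultures and sections have separate tables with different gene models, so this last contrast is only set side by side.

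**Figure D4:**
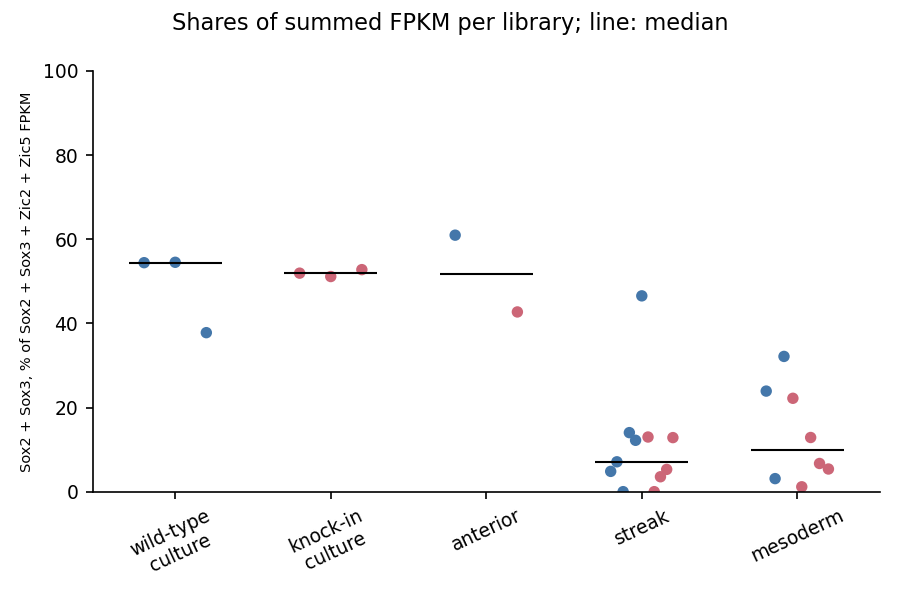
Share of Sox2 and Sox3 in the summed FPKM of Sox2, Sox3, Zic2 and Zic5, in percent; each point is a library or section, blue for wild type or heterozygous, red for knock-in or homozygous, and lines are medians. The share of Sox2 and Sox3 is 42.7% or more in both anterior sections. In the streak it has a median of 7.10% and a highest value of 46.5%.

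Between genotypes, none of the members passed in the streak. Zic2 stood at 0.524 to 1.77 FPKM in the 6 heterozygous sections (median 1.08) and at 1.48, 1.99, 2.60, 4.73 and 9.11 FPKM in the 5 homozygous ones. The homozygous values were higher with a small overlap, layer 9 stood out at 9.11 FPKM, and the log2 difference was 1.09 (SE 0.385, limma adjusted p = 0.424). Tested alone, by an exact two-sided permutation of the sections without the layer, Zic2 gave an unadjusted p = 0.0108. Zic5 stood at 1.14 to 8.85 FPKM in heterozygous streak (median 6.97) and at 6.90, 7.68, 11.7, 15.2 and 19.1 in homozygous streak, where 3 of 5 values were above all heterozygous ones. Its log2 difference was 0.99 (SE 0.327, limma adjusted p = 0.389, exact permutation p alone = 0.0563). Sox2 stood at 0 to 2.54 FPKM against 0 to 3.39 (log2 difference 0.15, limma adjusted p = 0.915). Of the 9932 genes tested, 0% were called higher and 0.0201% were called at all, and 0.745% were higher in every homozygous than in any heterozygous section, as no member was. Sections of 1 genotype can come from 1 embryo, which makes all these p-values too small.

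Other genes also differed with genotype in the same sections, though only 0.0201% of genes were called in the streak. Over all genes the median log2 difference was 0.25 in the streak and 0.31 in the mesoderm, and after scaling each library by its median ratio the differences in the streak were 0.85 for Zic2 and 0.77 for Zic5, again not called, and -0.08 for Sox2. Otx2 was at 0.357 to 5.72 FPKM in heterozygous and 4.04 to 45.7 in homozygous streak (log2 difference 2.10, limma adjusted p = 0.160). It was not typical of its list: none of 5 tested anterior neural plate genes was called in the streak, and their median log2 difference was -0.45. The summed level of extraembryonic ectoderm markers was 10.5 to 28.2 FPKM in heterozygous and 33.3 to 73.3 in homozygous streak. Of the 10 markers, 8 were above 0 in at least 1 streak section: Eomes, which the streak also expresses, reached 59.9 FPKM, Cdx2 8.54, Tfap2c 4.29, Bmp4 1.41 and Tead4 1.10, and Esrrb, Gata3 and Wnt7b stayed at 0.607 or less. Elf5 and Ascl2 were listed at 0 in every streak section. Visceral endoderm markers summed to up to 481 FPKM in heterozygous and 1470 in homozygous streak. Their part in the Zic values was not tested.

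In the mesoderm the genotypes overlapped. Zic2 stood at 3.21, 1.14 and 0.518 FPKM in heterozygous and at 0.928 to 3.82 in homozygous sections (median 1.84), and Zic5 at 7.19, 8.40 and 1.07 against 2.95 to 6.03 (median 5.27). Their log2 differences with the layer in the model were -0.10 (95% interval -1.01 to 0.81, limma adjusted p = 0.936) and -0.13 (-1.22 to 0.96, limma adjusted p = 0.930), while 0.196% of 8695 genes were called higher and 8.6% were higher with no overlap, as no member was. Heterozygous layer 11 was the low section of both genes, and it also had the lowest sum of FPKM of all sections (132929). Sox2, under the filter there, stood at 3.07, 0 and 0.750 FPKM against 0 to 1.93, with an exact permutation p of 0.679. These are again p-values over sections that can share an embryo, and they show no more than that no difference passed.

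With both regions in 1 model (19 sections, region and layer as terms), the genotype differences were 0.70 for Zic2 (SE 0.292, limma adjusted p = 0.188), 0.53 for Zic5 (SE 0.287, limma adjusted p = 0.306) and -0.01 for Sox2 (limma adjusted p = 0.993). None passed, where 1.25% of 9527 genes were called, 1.13% higher and 0.115% lower (94 higher and 68 lower after scaling, 108 and 11 before). Called genes of the lists included Otx2 (1.75), Utf1 (1.30) and Pou5f1 (1.21), all higher in homozygous sections. Otx2 was the only 1 of 6 tested anterior neural plate genes that was called, and their median was -0.26. Of 19 tested genes of the streak and early mesoderm list, 6 were called higher and 2 lower (4 and 2 after scaling). Lhx1 (2.07), Mixl1 (2.02) and Eomes (1.95) were among the higher ones. The lower ones were Hoxb1 (-2.09) and T (-1.22). Among the 8 pairs of sections matched by region and layer, Otx2 was higher in the homozygous one in 8. Zic2 was higher in 5 of 5 streak pairs and 1 of 3 mesoderm pairs, and Zic5 in 4 of 5 and 1 of 3. The difference between the regions in their genotype effect was itself tested as an interaction: it was -1.02 for Zic2 (95% interval -2.22 to 0.19), -1.14 for Zic5 (-2.30 to 0.01) and -0.47 for Sox2, all with a limma adjusted p of 0.999, and 0% of genes were called. The sections can share an embryo here too.

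Mesoderm and streak were compared within the 7 pairs of the same genotype and layer. Zic5 was lower in the mesoderm in 5 of 7 pairs, with a log2 difference of -0.48 (SE 0.252, limma adjusted p = 0.237), and Zic2 in 3 of 7 (-0.16, SE 0.394, limma adjusted p = 0.819). Sox2 was lower in 4, higher in 2 and listed at 0 in both sections of 1 pair, and was under the filter. Sox3 was above 0 in 5 of 8 mesoderm and 2 of 11 streak sections, at no more than 0.451 FPKM in any. No member was called, where 8.62% of 9146 genes were called, 0.579% higher and 8.04% lower. That split depends on the scale: over all genes the median was -0.34, and with scaled libraries 35 genes were higher and 28 lower in place of 53 and 735. Pou5f1 was called lower (-1.77), as were 6 of 9 tested partners and targets of SOX2, 4 of 9 after scaling. Pairs of 1 genotype can come from 1 embryo.

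Along the layers, no member passed the test. In the streak Zic5 stood at 7.80, 8.85, 6.13, 5.94, 7.83 and 1.14 FPKM in heterozygous layers 1, 3, 5, 7, 9 and 11 and at 19.1, 11.7, 15.2, 7.68 and 6.90 in homozygous layers 1, 5, 7, 9 and 11. The lowest value of each genotype was in layer 11. Heterozygous streak layer 11 also had the fewest genes at 1 FPKM or more of all sections, 6806, against 9688 in homozygous streak layer 11. The part of this in its low value was not tested. The slope was -0.14 log2 per layer number (SE 0.0473, limma adjusted p = 0.175), the steepest of the 3 members tested there. Sox2 was listed at 0 in layer 5 of both genotypes and then stood at 1.06, 1.16 and 2.54 FPKM in heterozygous and 0.615, 0.938 and 1.31 in homozygous layers 7, 9 and 11, but homozygous layer 1 was the highest of all at 3.39. Its slope was 0.04 (SE 0.0636, limma adjusted p = 0.763), and that of Zic2 was -0.02 (SE 0.0557, limma adjusted p = 0.850). In the streak 0.0805% of genes were called, 0.0101% with a rising and 0.0705% with a falling slope.

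In the mesoderm the slopes of Zic2 and Zic5 were -0.16 (SE 0.0756, limma adjusted p = 0.968) and -0.13 (SE 0.0908, limma adjusted p = 1), with 0.0115% of genes called. Layer 11 held the lowest Zic5 value of both genotypes there as well, 1.07 FPKM in the heterozygous and 2.95 in the homozygous section. These sections had 7025 and 9403 genes at 1 FPKM or more, and the heterozygous one had the lowest sum of FPKM of all sections (132929). The slopes in the streak did not differ between genotypes for any member at the threshold. The difference was -0.20 for Sox2 (95% interval -0.46 to 0.05, limma adjusted p = 0.823), 0.02 for Zic5 (-0.19 to 0.23) and 0.00 for Zic2 (-0.25 to 0.24), and 0% of genes were called. As layers of 1 genotype may be slices of 1 embryo, these p-values are too small as well.

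**Figure D5:**
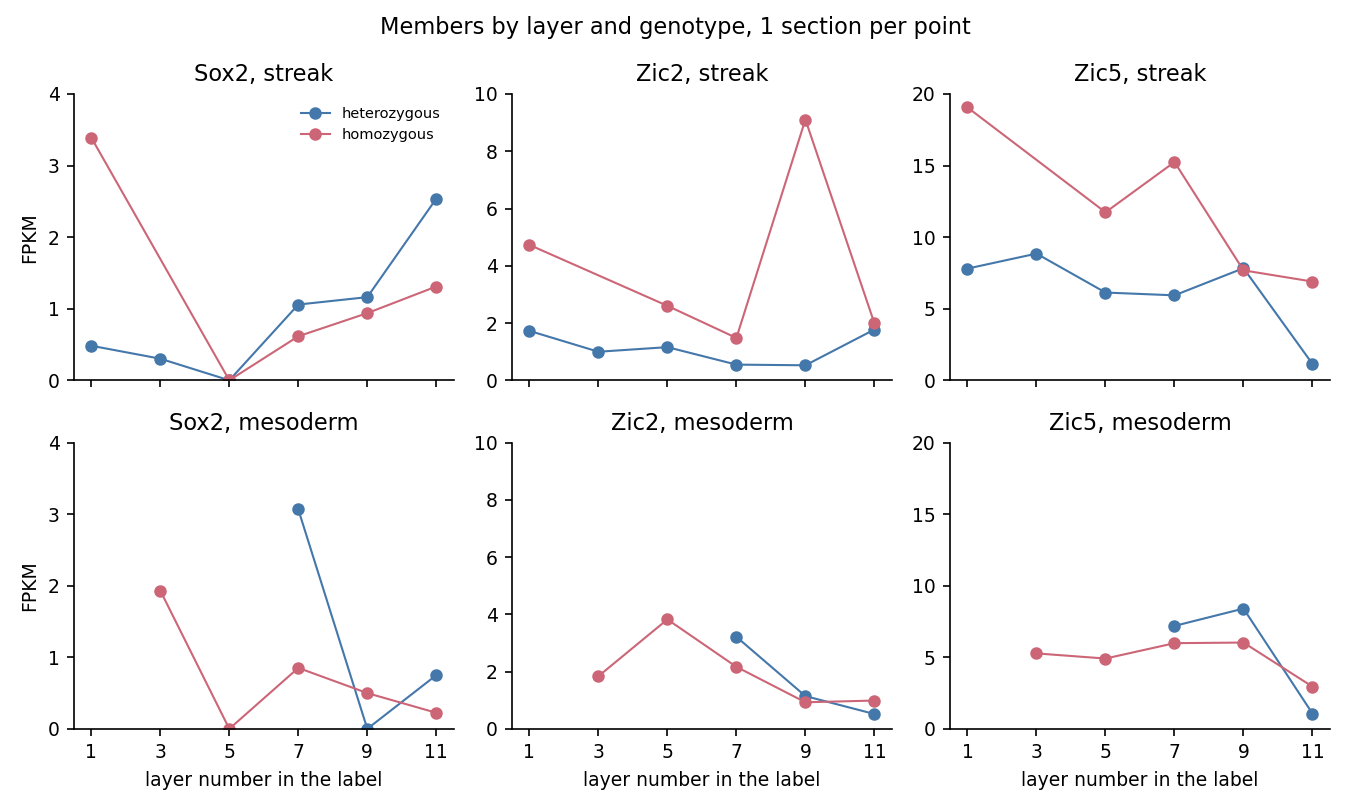
FPKM of Sox2, Zic2 and Zic5 against the layer number of the label in the streak (top) and mesoderm (bottom); each point is a section, blue heterozygous and red homozygous, and the lines only join the points of a genotype. Zic5 is lowest in layer 11 of both genotypes and regions, where the heterozygous sections had the fewest genes at 1 FPKM or more. Sox2 is at 0 in layer 5 of both genotypes in the streak, and homozygous layer 9 is the high Zic2 point (9.11).

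Across the 21 sections with a region the members did not share 1 pattern. Pearson's r of log2(FPKM + 1) was 0.36 between Zic2 and Zic5, 0.32 between Zic2 and Sox2 and 0.23 between Zic5 and Sox2, and the last was -0.03 without the anterior sections. Of 9500 genes that averaged 1 FPKM or more, the closest to Sox2 were Slc35d3 (r = 0.83), Uchl1 (0.78) and Pou3f1 (0.76). They rest on the anterior sections: without them r was 0.27, 0.50 and 0.30. The closest to Zic2 were Ldlrad3 (0.77), Mllt1 (0.70) and Prelid2 (0.70), and the closest to Zic5 were Klhl12 (0.88), G3bp2 (0.86) and Pdf (0.84), and these changed little without the anterior sections (0.74 to 0.91). These values describe sections that share depth, Yam1 share and possibly embryos.

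Sox2ot, the non-coding gene around Sox2, was above 2 FPKM in both anterior sections (2.42 and 2.83) and in homozygous mesoderm layer 11 (2.16), where Sox2 stood at 0.224 FPKM. In the streak it was listed at 0 in 7 of 11 sections and reached 1.07 FPKM. In the cultures it stood at 0.522, 0.417 and 0.132 FPKM in the knock-in line and at 0.179 or less in wild type. The culture and section tables give it different identifiers and spans.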

How the data were processed

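RNA sequencing was deposited for 34 samples, of which the 30 with a table were used (6 cultures, 24 sections) and 4 posterior pieces were not analysed here. The authors deposited 1 table per library in FPKM, with lower and upper bounds beside it and columns named as Cufflinks names them, per the file headers. The submitters' processing notes name CASAVA, TopHat2 version 2.0.11 and mm10, and the tool that made the values is not given in the sources used here. Gene positions of the section tables match mm10 and those of the culture tables do not, so positions are given from the former only. Whole reads could not be recovered, so depth is unknown, no counting limits are given and no count model was run.

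Values of repeated identifiers were added and values under 1e-06 set to 0. Groups came from the labels, and 3 sections whose labels conflict entered no comparison. log2(FPKM + 1) was fitted with limma 3.58.1 in R 4.3.3 (trend prior, two-sided, Benjamini-Hochberg over all genes of mean 1 FPKM or more, threshold 0.05). Genotype fits had the layer as a number, layer fits and the anterior fit had the genotype, and mesoderm against streak was fitted within pairs of the same genotype and layer. A member under the filter was compared by an exact two-sided permutation test. The alternatives were a pseudocount of 0.1, no filter or a mean of 5 FPKM, median-ratio scaling, leaving out each library, the block of replicate or layer numbers, other section assignments and layer ranges, and for the cultures the libraries whose table name carries the token L3.

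The fitting code was tested on simulated data.

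Numbers did not pair the samples: deviations from the group means correlated at -0.12 to -0.05 between same-numbered cultures, at 0.48 in streak layer 1 and at 0.07 or less in the other layers. The 6 members and all gene lists were chosen with earlier results of these data known. Besides the members, up to 4 genes per list and comparison with the largest change past the threshold are named, with other SoxB and Zic genes, T, Otx2, Pou3f1 and Pou5f1 in any case, the 3 genes most like a member, genes that overlap a member, and sex-linked genes beside Sox3. Single markers quoted for the makeup of sections were chosen after their values were seen. Results on some genes are not reported here. Promoter sequences are from RefSeq (GRCm38.p6) and gene models from GENCODE.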

Additional observations from a re-analysis of the deposited data

Results flagged for a closer look

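In groups of 4 to 10 sections, 15 combinations of a member and a group could be checked for a section far from the others, and 6 were marked. The rule compares the gap to the nearest value with the range, so a group with a single value above 0 is always marked. The count of marks therefore cannot be set against a rate expected by chance. All 6 are values under 0.5 FPKM, in groups where the other sections are listed at 0 or stand at 0.102 FPKM or less: Sox1 at 0.111 FPKM in heterozygous streak layer 5, Sox3 at 0.451 in heterozygous streak layer 3, at 0.353 in homozygous mesoderm layer 7 and at 0.161 in homozygous streak layer 1, and Zic1 at 0.0767 in heterozygous streak layer 3 and at 0.0685 in homozygous mesoderm layer 3. The deposited interval includes 0 for Sox1, for Sox3 in homozygous streak and for both Zic1 values.

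The homozygous section whose title says streak and whose cell type label says mesoderm held more Zic5 than any other section, 22.5 FPKM (deposited interval 20.0 to 25.1), against at most 8.85 in the heterozygous streak and mesoderm sections. Its Zic2 value of 3.39 FPKM was also above their highest, 3.21, but the deposited intervals overlap.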

How the results depend on the processing

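Every member's direction in the cultures held under each alternative run, and so did those of Sox2 and Sox3 in the anterior epiblast. The difference of means of Zic5 there, 0.541 without the genotype term, was -0.0470 without the homozygous anterior section. The number of members called in the cultures was 3 (in place of 5) with no filter and 3 to 5 when 1 library was left out, and 0 by the exact permutation test, which cannot pass with 3 against 3. For anterior against streak it was 0 with a mean of at least 5 FPKM, where Sox2 was not tested, 0 with a pseudocount of 0.1, 2 with no filter (Sox2 and Sox3) and 0 to 1 when 1 section was left out, which for the anterior group leaves 1 section assumed to vary like the streak. In streak genotype it was 1 by the unadjusted permutation test. All other counts of members stayed at 0. Among the cultures of token L3 alone, 3 libraries whose p-values were not used, Sox3 differed by 0.97 in place of 1.41.

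The replicate block kept all 5 calls in the cultures (adjusted p 0.00587 for Sox2, 0.0373 for Zic2) and gave 0 calls in the genotype comparisons. With the replicate block the differences turned in sign for Sox2 over both regions (0.0846) and Zic5 in mesoderm (0.0949), neither called. The other sign changes were all of differences that did not pass. Over both regions Sox2 was 0.0347 with the 3 conflicting sections placed by their cell type label, 0.0252 with them placed by title and 0.0648 with the small pseudocount. After scaling, Sox2 in streak genotype was -0.0843, Zic2 in mesoderm against streak 0.0932, the streak slope of Zic2 0.00690 and the genotype by layer term of Zic5 -0.0174. Without streak layer 1 the slope of Zic2 was 0.0352 and its genotype by layer term 0.0390, which was 0.00579 with the small pseudocount. Within heterozygous pairs only, mesoderm against streak was 0.356 for Zic2 and 0.0925 for Zic5. In mesoderm genotype Zic2 was 0.0470 with the conflicting sections added by title, and without the layer, as in the permutation test, Zic2 was 0.216 and Zic5 0.124.

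Leaving out 1 section at a time moved the difference across 0 for Sox2 over both regions (-0.140 to 0.115) and in streak genotype (-0.00128 to 0.399), for Zic2 in anterior against streak (-0.208 to 0.947), mesoderm against streak (-0.431 to 0.209), mesoderm genotype (-0.248 to 0.252) and genotype by layer (-0.0787 to 0.0831), and for Zic5 in mesoderm genotype (-0.618 to 0.266) and genotype by layer (-0.108 to 0.0734). The cause of these changes was not tested.

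Calls over all genes moved more, from 4256 to between 2693 and 4256 in the cultures. That range leaves out the set of token L3, which has only 3 libraries and whose calls were not used. For anterior against streak the calls moved from 40 to between 6 and 183. Genotype calls moved from 2 to between 0 and 9 in the streak and from 17 to between 0 and 227 in the mesoderm. Over both regions they moved from 119 to between 19 and 835. Mesoderm against streak moved from 788 to between 20 and 1723. The streak slope moved from 8 to between 0 and 25 and the mesoderm slope from 1 to between 0 and 4. Each interaction moved from 0 to at most 1. At an unadjusted p under 0.05 the interactions held 337 (region) and 543 (layer) genes. Depth is unknown, and values near 0 in the sections limit what can be said of Sox1, Sox3 and Zic1.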

Other observations

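In the 3 sections whose labels name different regions, the heterozygous ones held 8.82 and 10.4 FPKM of Zic5, 1.86 and 2.05 of Zic2 and 0 and 2.91 of Sox2, and the homozygous one held 2.22 FPKM of Sox2. Zic1 had its highest section value, 0.320 FPKM, in 1 of the heterozygous ones, with a deposited interval that includes 0.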
